A study of Mus musculus with 16 samples.

Results

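In control endosteal mesenchymal stromal cells (MSCs), 475 of 3789 measured autosomal promoters (12.5%) had little H3K4me3 and no high level of H3K27me3 or H2AK119ub1. They are called unmarked promoters here, though the rule does not require the latter histone marks to be low. A promoter is the 4 kb centred on the gene start, and its level is its count scaled to the library's total over autosomal windows (CPM), averaged over 2 control libraries. An unmarked promoter had an H3K4me3 level in the lowest 20% (under 32.0 CPM), an H3K27me3 level below the 75th percentile (121 CPM) and an H2AK119ub1 level below the 80th percentile (150 CPM). The whole table holds 3925 genes, each marked UP or DOWN by the authors, so it is not a sample of all mouse genes. The lowest 20% of H3K4me3 held 758 promoters, of which the other 283 failed the condition on H3K27me3 (264), on H2AK119ub1 (102) or on both (83).

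BAP1 is a deubiquitinase that takes off H2AK119ub1, the ubiquitin that a Polycomb repressive complex attaches to histone H2A. The control mice (WT) were C57BL/6J with both Bap1 alleles floxed and no Cre (Bap1fl/fl). The mice without BAP1 (cKO) carried Prx1-cre on the same alleles (Prx1-cre;Bap1fl/fl), a recombinase active in the mesenchyme of the limb. Chromatin immunoprecipitation and sequencing (ChIP-seq) was done for H2AK119ub1, H3K27me3, H3K4me3 and H3K27ac, giving 16 libraries, a pair for every mark in each genotype. Whether a pair comes from different animals is not stated in the labels, and a p-value then reflects only how far such a pair differs, possibly for technical reasons. Libraries titled H3K4me3 list an antibody to acetylated H3K27 and those titled H3K27ac an antibody to H3K4me3; marks are named by title. The deletion itself was not checked, since the Bap1 locus is not analysed here.

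H3K4me3 sits at the starts of active and poised genes and H3K27ac at active promoters and enhancers. H3K27me3 and H2AK119ub1 are the marks of the Polycomb complexes, which hold many developmental genes silent. A promoter with neither kind of mark is often one that lacks CpG islands, the stretches rich in CG dinucleotides at which both H3K4me3 and Polycomb complexes gather, and it is typical of genes used in other tissues.

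Promoter sequences are shown for the first 3 named gains and the first 3 named losses of H3K27ac that have an entry in the RefSeq table of GRCm38.p6, and, for contrast, for the pair of promoters with the highest WT H3K4me3 of all. Each runs 5′ to 3′ on the gene's strand, from 250 bases before the start to 50 after it, with every CG dinucleotide in capitals. Dhx32 (chr7:133782736-133783035, minus strand), Grik5 (chr7:25072320-25072619, minus strand) and Hyal1 (chr9:107576700-107576999, plus strand) gained H3K27ac in cKO cells.
Dhx32: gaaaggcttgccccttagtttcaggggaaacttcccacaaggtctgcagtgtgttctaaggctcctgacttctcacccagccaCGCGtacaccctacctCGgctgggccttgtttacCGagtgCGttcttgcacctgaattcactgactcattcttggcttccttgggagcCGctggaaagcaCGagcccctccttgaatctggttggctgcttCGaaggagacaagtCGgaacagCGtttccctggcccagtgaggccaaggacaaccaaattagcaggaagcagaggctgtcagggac
Grik5: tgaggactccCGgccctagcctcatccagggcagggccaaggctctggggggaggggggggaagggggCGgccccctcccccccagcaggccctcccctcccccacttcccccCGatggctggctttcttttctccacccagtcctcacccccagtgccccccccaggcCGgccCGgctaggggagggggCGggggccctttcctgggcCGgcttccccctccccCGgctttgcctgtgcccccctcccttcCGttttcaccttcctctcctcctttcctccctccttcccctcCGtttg
Hyal1: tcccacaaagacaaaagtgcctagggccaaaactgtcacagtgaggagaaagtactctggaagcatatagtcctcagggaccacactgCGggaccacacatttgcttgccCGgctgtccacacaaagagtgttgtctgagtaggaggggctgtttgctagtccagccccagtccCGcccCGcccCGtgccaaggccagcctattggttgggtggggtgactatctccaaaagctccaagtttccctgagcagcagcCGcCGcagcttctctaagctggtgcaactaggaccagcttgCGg
Lctl (chr9:64116897-64117196, plus strand), Crocc2 (chr1:93168173-93168472, plus strand) and Asgr1 (chr11:70053874-70054173, plus strand) lost it.
Lctl: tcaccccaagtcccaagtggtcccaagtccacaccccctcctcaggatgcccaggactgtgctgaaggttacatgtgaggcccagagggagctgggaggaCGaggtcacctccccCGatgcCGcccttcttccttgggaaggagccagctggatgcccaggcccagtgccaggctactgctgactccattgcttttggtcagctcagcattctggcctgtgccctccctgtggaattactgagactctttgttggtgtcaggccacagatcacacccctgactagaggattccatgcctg
Crocc2: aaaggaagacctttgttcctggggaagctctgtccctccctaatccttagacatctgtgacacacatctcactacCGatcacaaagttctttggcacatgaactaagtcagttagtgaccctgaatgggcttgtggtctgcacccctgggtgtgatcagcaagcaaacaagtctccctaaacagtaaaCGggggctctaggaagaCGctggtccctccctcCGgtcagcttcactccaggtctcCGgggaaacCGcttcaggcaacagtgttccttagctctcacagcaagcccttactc
Asgr1: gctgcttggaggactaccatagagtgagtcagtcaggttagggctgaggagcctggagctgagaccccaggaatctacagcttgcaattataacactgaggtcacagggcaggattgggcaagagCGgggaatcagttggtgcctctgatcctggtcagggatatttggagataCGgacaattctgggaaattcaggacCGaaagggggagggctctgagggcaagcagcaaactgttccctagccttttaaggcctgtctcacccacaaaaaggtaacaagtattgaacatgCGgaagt
Lncpint (chr6:31218425-31218724, minus strand) and Cited2 (chr10:17722978-17723277, plus strand) are no members.
Lncpint: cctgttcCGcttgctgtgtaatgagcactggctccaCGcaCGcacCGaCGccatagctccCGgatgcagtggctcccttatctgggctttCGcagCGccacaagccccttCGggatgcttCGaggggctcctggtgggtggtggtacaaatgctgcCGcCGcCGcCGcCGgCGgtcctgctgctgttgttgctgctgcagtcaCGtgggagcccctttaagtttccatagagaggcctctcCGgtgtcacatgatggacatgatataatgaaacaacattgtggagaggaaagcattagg
Cited2: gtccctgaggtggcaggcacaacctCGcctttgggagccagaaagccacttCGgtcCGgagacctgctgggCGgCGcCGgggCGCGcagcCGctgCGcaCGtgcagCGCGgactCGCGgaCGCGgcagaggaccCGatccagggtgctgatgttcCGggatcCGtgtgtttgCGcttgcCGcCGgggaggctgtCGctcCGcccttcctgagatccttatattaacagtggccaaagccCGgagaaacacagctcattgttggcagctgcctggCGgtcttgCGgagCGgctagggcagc
The gaining promoters held 10 CG dinucleotides in Dhx32, 10 in Grik5 and 8 in Hyal1. The losing ones held 3 in Lctl, 6 in Crocc2 and 4 in Asgr1. Lncpint held 18 and Cited2 29. Over all 32851 promoters of 300 bases in the RefSeq table the median was 7, the 10th and 90th percentiles were 1 and 31, and 58.6% had 10 or fewer, so all 6 member promoters lay within those percentiles. Of 217 named protein-coding members considered, 173 (79.7%) have an entry in the RefSeq table, with a median of 5 CG dinucleotides. With low H3K4me3 and more Polycomb mark, 161 of 212 (75.9%) have an entry, with a median of 13. Above the lowest 20% of H3K4me3, 2015 of 2468 (81.6%) have an entry, with a median of 22. Over these groups together the median was 20. The difference was not tested, and promoters without an entry are missing from it, so it is a description.

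The WT libraries gave a flat picture at the members. The median H3K4me3 level over the 475 promoters was 13.8 and 15.1 CPM in the 2 WT libraries, against 229 in both for the 3031 promoters above the lowest 20%. The median H3K27me3 level was 56.7 and 68.4 CPM and that of H2AK119ub1 74.4 and 79.9 CPM. These 3 marks chose the members, so their WT levels are a description. Just inside the H3K4me3 limit lay Cd68 (31.9 CPM), which encodes a lysosomal protein of macrophages, and just outside it lay Cavin4 (32.1 CPM), a caveola protein of muscle. Just inside the H3K27me3 limit lay Car15 (121 CPM), a carbonic anhydrase, and just inside the H2AK119ub1 limit Msln (149 CPM), the surface protein mesothelin. Applied to each WT library alone, the rule chose 465 and 482 promoters, 412 of them in both, and 411 of those are among the members.

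H3K27ac was not used by the rule and was low as well. Its median over the members was 33.5 and 34.2 CPM in the WT libraries, and 321 of the 475 (67.6%) lay in the lowest 20% of all autosomal promoters. Only 10 members lay above the autosomal median of 127 CPM.

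Coverage was thin at some members. At 73 of them (15.4%) the mean cKO H2AK119ub1 level was under 1/5 of the autosomal median, as it was at 6 of the 3031 promoters with more H3K4me3 and at none of the 283 neighbours with low H3K4me3 and more Polycomb mark. Gm3055, Slc25a37 and Gm16867 had 0 counts in all 16 libraries. Over the 73 the median level was between 2.46 and 7.01 CPM for every mark and genotype, though some had ordinary levels of another mark, such as Zfp947 with WT H3K4me3 of 22.3 and 19.9 CPM. Where all antibodies gave few reads, a lack of marks cannot be told apart from a lack of mappable reads. The median count per member and library was 69 to 213, with each read counted in about 3 bins, and the windows of all genes held 429493 to 3371063 reads per library when counted once.

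The members differed from other promoters in what they start. By RefSeq position, 230 (48.4%) began a protein-coding gene, against 83.3% of the 3031 promoters above the lowest 20%. Of 51 autosomal pseudogenes 43 were members, 38 of 42 of the plain kind and 5 of 9 of those annotated as transcribed. There were 24 long non-coding RNAs (5.05%, against 3.99% of the promoters above the lowest 20%) and 3 microRNA genes. At 174 promoters (36.6%, against 12.3%) the identifier found no single RefSeq gene. These have no gene type here, which lowers the protein-coding share of the members. The start lay inside another RefSeq gene at 125 members (26.3%), against 10.1% of the promoters above the lowest 20%. Of the 125, 95 had no name; the share was 54.6% against 50% among starts without a name and 9.97% against 4.44% among those with one.

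Some members lay beside a marked start. The best 1 kb of WT H3K4me3 in the 10 kb window lay outside the central 4 kb at 268 members (56.4%), a share that the choice of members for low H3K4me3 in the central 4 kb itself raises. It was over the H3K4me3 limit there at 57 members (12%), against 20.0% of the promoters above the lowest 20% and 18.2% of all autosomal ones. Tmem223, a mitochondrial membrane protein gene, had 310 CPM in the best downstream 1 kb and 10.4 CPM in the best 1 kb of its own 4 kb. Cpt1b, the carnitine palmitoyltransferase of muscle, chosen here after its values were seen, had 239 CPM upstream and 7.93 CPM inside. The 4 kb of 12 members overlaps that of another gene of the table.

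**Figure D1:**
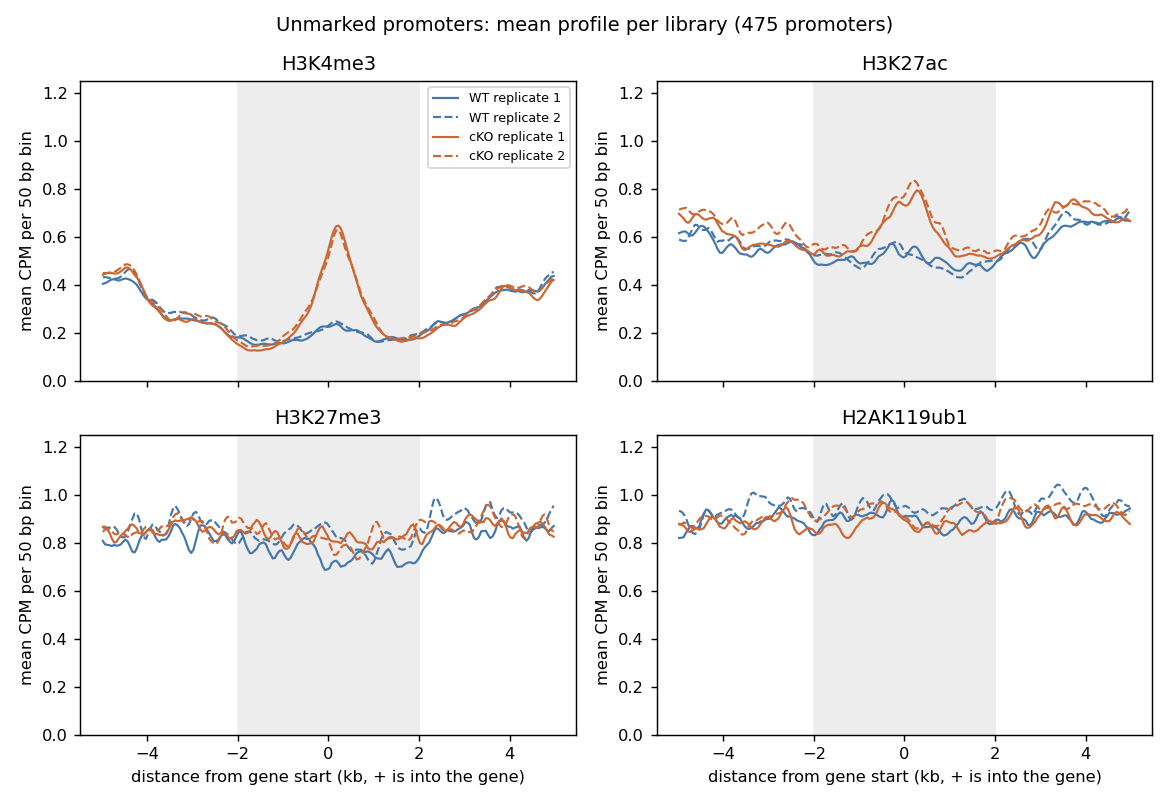
Mean CPM per 50 bp bin at the 475 unmarked promoters, by distance from the gene start in kb (positive is into the gene), for each of the 4 marks, smoothed over 200 bp. Lines are single libraries (WT blue, cKO orange, replicate 2 dashed) and grey marks the 4 kb used by the rule: a peak of H3K4me3 and a smaller one of H3K27ac stand at the start in both cKO libraries and in neither WT library, while both Polycomb marks stay flat.

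The question of the comparison was how the marks at these promoters differ without BAP1. Averaged along the window, H3K4me3 had a peak at the start in both cKO libraries and in neither WT library. The mean over the 500 bp around the start was 0.545 and 0.542 times that of the outer flanks in the WT libraries and 1.24 and 1.16 times in the cKO libraries. For H3K27ac the same ratio was 0.847 and 0.842 in WT and 1.09 and 1.10 in cKO. For H2AK119ub1 it lay between 0.982 and 1.03 in all 4 libraries, and for H3K27me3 between 0.886 and 0.973. The rule chose members for low WT H3K4me3 in this 4 kb, so the WT trough of that mark is set by the choice. The H3K4me3 difference is therefore a description. H3K27ac was not used by the rule, but most members were also low in WT H3K27ac. A choice by WT H3K4me3 may thus also have favoured promoters with little WT H3K27ac at the start. How far this shaped the H3K27ac profiles was not tested, so their difference is a description as well.

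The H3K4me3 peak came from few promoters. The share of all autosomal H3K4me3 counts that fell in member promoters was 0.690% and 0.721% in the WT libraries, and in the cKO libraries it was 1.04% and 1.07%. The level of the median member was nevertheless lower in cKO, at 10.4 and 11.8 CPM, than its WT values of 13.8 and 15.1 CPM. In the outer 1 kb of promoters above the lowest 20%, mean H3K4me3 was also lower in cKO. It was 0.386 and 0.395 CPM per bin in WT and 0.303 and 0.319 in cKO. In the members' own outer 1 kb it was 0.396 and 0.410 in WT and 0.405 and 0.420 in cKO. Whether the lower median is a loss of the mark or a lower background was not tested. In both cKO libraries 51 members (10.7%) were over the WT limit of 32.0 CPM, and 22 were over 100 CPM. By the limit of the cKO libraries' own lowest 20% (35.9 CPM) 52 members left it and 423 stayed. Of the 52 that left, 51 carry the authors' mark UP, against 55.8% of all members and 48.8% of all autosomal promoters. The sources used here do not state what the mark was called from, so it may not be independent of these libraries.

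In H3K27ac, 447 of the 475 members had enough counts to be tested. By edgeR's quasi-likelihood test with Benjamini-Hochberg adjustment over all 3892 tested promoters (threshold 0.05), 99 members rose and 52 fell in cKO cells. That is 22.1% and 11.6% of those tested, against a background over all tested promoters of 30.9% higher and 29.1% lower, so both shares lay under the background. The median change over the members was 0.13 on the log2 scale, against -0.0049 over all tested promoters, with a median SE of 0.33 against 0.20. The WT and cKO libraries did not overlap at 293 members, 176 with both cKO libraries higher (37.1%, background 40.1%) and 117 with both lower (24.6%, background 39%). Among the 283 promoters under the same H3K4me3 limit but with more Polycomb mark, whose median WT H3K4me3 was somewhat higher (19.4 and 22.3 CPM), 88 rose and 12 fell.

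The named gains of H3K27ac were at genes of unlike function. Vit encodes vitrin, an extracellular matrix protein; its promoter (chr17:78506064-78510063) had H3K27ac levels of 53.8 and 63.3 CPM in WT and 676 and 574 CPM in cKO. Both cKO libraries lay about an order of magnitude above both WT libraries. The log2 change was 3.42 ± 0.17 (SE; edgeR adjusted p = 1.8e-17). Its H3K4me3 was 23.3 and 33.9 CPM in WT and 313 and 282 CPM in cKO, and its H3K27me3 was 129 and 106 CPM in WT and 37.7 and 60.7 CPM in cKO.

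Mmp16 encodes a membrane-bound matrix metalloproteinase; its promoter (chr4:17851458-17855457) had H3K27ac levels of 19.3 and 24.4 CPM in WT and 161 and 118 CPM in cKO. The groups did not overlap, and the log2 change was 2.68 ± 0.25 (SE; edgeR adjusted p = 5.5e-11). Relative to neighbouring genes the change was smaller, at 1.85, and still called. Here and below, the reference for H3K27ac is the change of H2AK119ub1 and H3K27me3 at 20 neighbouring genes, not of their H3K27ac. The H3K4me3 of Mmp16 was 17.9 and 19.5 CPM in WT and 276 and 243 CPM in cKO. Grik5 encodes a subunit of the kainate-type glutamate receptors; its promoter (chr7:25070347-25074346) had H3K27ac levels of 26.8 and 28.9 CPM in WT and 123 and 103 CPM in cKO. The log2 change was 2.03 ± 0.25 (SE; edgeR adjusted p = 2.1e-08). With neighbouring genes as the reference it was 1.60 and still called. The H3K4me3 of Grik5 was 8.64 and 15.9 CPM in WT and 213 and 258 CPM in cKO, so that the groups stood far apart in both active marks.

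Dhx32, a DEAH-box helicase gene, had H3K27ac levels of 34.5 and 20.1 CPM in WT and 137 and 121 CPM in cKO (log2 change 2.26). Nlrx1, a mitochondrial receptor of the NLR family, had 34.9 and 41.8 CPM in WT and 138 and 121 CPM in cKO (log2 change 1.76). Hyal1, a lysosomal hyaluronidase gene, had 60.6 and 68.8 CPM in WT and 204 and 170 CPM in cKO (log2 change 1.54). The remaining named gains were Prrt2 (2.02), a presynaptic protein gene, and Tmem223 (1.54). The 4 kb of Prrt2 and of Hyal1 overlap another gene's, so their reads cannot be assigned to 1 start. With 5 kb to each side the log2 change was smaller at Grik5 (0.77), Nlrx1 (1.03), Hyal1 (0.45) and Tmem223 (0.32), each still called.

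The plot of values by library shows that all 8 named gains had higher H3K4me3 in both cKO libraries than in either WT library. Among the members with the highest cKO H3K4me3 were also Il20rb, a cytokine receptor chain, at 18.3 and 16.4 CPM in WT and 254 and 199 CPM in cKO, and Cobl, an actin nucleator, at 18.4 and 16.05 CPM in WT and 166 and 159 CPM in cKO. Both rose in H3K27ac, by 1.68 and 1.95 on the log2 scale. Eps8l2, an actin regulator of hair cells, rose by 1.16. With 5 kb to each side the change at Cobl was 1.28.

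**Figure D2:**
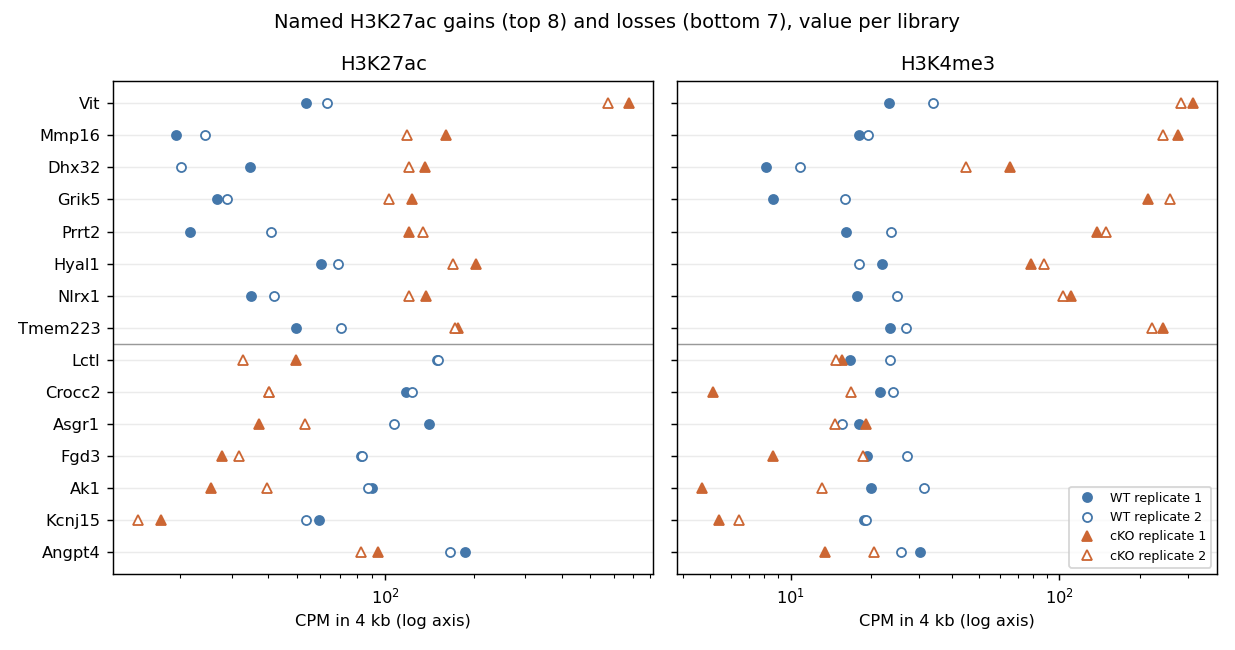
H3K27ac (left) and H3K4me3 (right) of 8 named gains and 7 named losses of H3K27ac, in CPM over the 4 kb on log axes; each point is 1 library (WT circles, cKO triangles, replicate 1 filled). The gains stand apart in both marks, while the losses were at or under 31.4 CPM of H3K4me3 in every library.

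A loss of H3K27ac can be called only where the WT libraries hold some of it, so nothing is read from the WT levels of the named losses. Lctl encodes a klotho-family membrane protein; its promoter (chr9:64115147-64119146) had H3K27ac levels of 150 and 151 CPM in WT and 49.5 and 32.8 CPM in cKO. The groups did not overlap, and the log2 change was -1.86 ± 0.23 (SE; edgeR adjusted p = 1.5e-08). Its H3K4me3 was 16.6 and 23.5 CPM in WT and 15.5 and 14.7 CPM in cKO. Asgr1, a subunit of the hepatocyte asialoglycoprotein receptor (chr11:70052085-70056084), had H3K27ac levels of 141 and 107 CPM in WT and 37.2 and 53.4 CPM in cKO. Its log2 change was -1.45 ± 0.23 (SE; edgeR adjusted p = 2.3e-06).

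Crocc2, a gene of the ciliary rootlet family, had 118 and 123 CPM in WT and 40.0 and 40.2 CPM in cKO (log2 change -1.58). Its call ended when the promoter was taken as 1 kb to each side, where the log2 change was -0.89. Kcnj15, an inward rectifier potassium channel, had 59.6 and 53.7 CPM in WT and 17.2 and 14.3 CPM in cKO (log2 change -1.83). Fgd3, an exchange factor for Cdc42, and Ak1, an adenylate kinase, fell by 1.48 and 1.45 on the log2 scale. The change at Ak1 was -0.53 with 5 kb to each side and that at Kcnj15 -1.08 relative to neighbouring genes, both still called.

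Angpt4, a ligand of the Tie2 receptor that the authors marked UP, had H3K27ac levels of 187 and 166 CPM in WT and 94.7 and 82.6 CPM in cKO. Its log2 change was -0.98 ± 0.19 (SE; edgeR adjusted p = 3.8e-05), and -0.50 with 5 kb to each side. Of the 10 members above the autosomal median of WT H3K27ac, 8 fell and 2 rose; the WT libraries of the contrast chose these 10, so the count is a description.

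The authors' marks went with the direction. Of the 265 members marked UP, 92 rose in H3K27ac and 9 fell. Of the 210 marked DOWN, 7 rose and 43 fell. The sources used here do not state what the marks were called from. Over all genes of the table, 59.8% of those marked UP rose and 52.8% of those marked DOWN fell, so the split is not particular to the members.

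The H3K4me3 values beside the H3K27ac calls are a description, since the WT H3K4me3 libraries chose the members. Of the 52 members that left the lowest 20% of H3K4me3 in cKO, 44 rose in H3K27ac and 1 fell. Of the 423 that stayed, 55 rose and 51 fell. Over the 447 members tested, the H3K4me3 change was above 0 at 81 of the 99 that rose in H3K27ac. It was below 0 at 47 of the 52 that fell, and also at 213 of the 296 that were not called. These shares of the same sign, 81.8% and 90.4%, compare with 98.6% of 1090 and 92.6% of 1028 at the autosomal promoters that are no members, so the pairing of the active marks is not particular to the members.

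**Figure D3:**
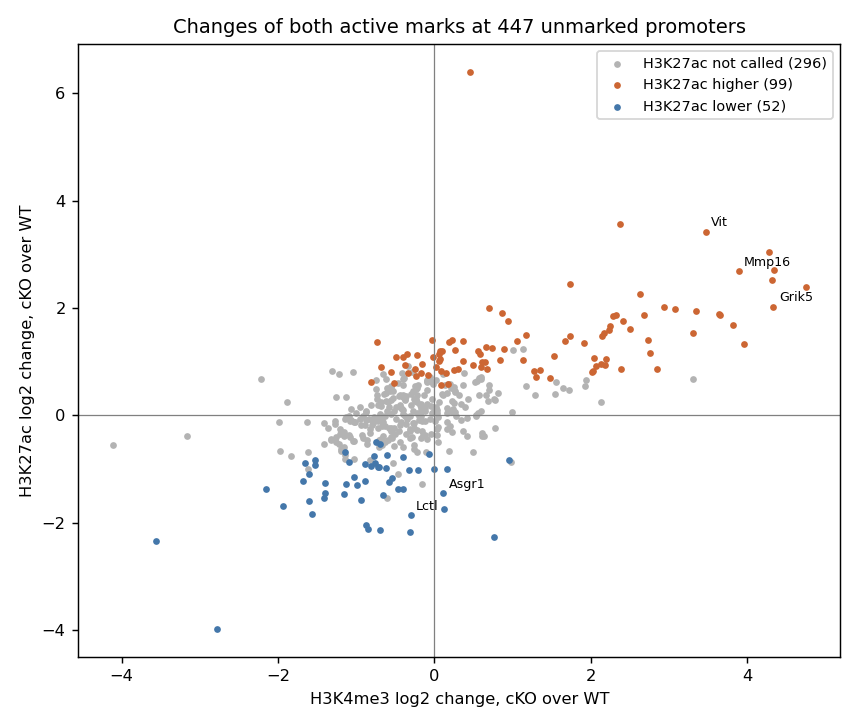
Change of H3K27ac against change of H3K4me3 (both log2, cKO over WT) at the 447 members tested in H3K27ac; colour is the H3K27ac call (99 higher, 52 lower, 296 not called). The arm to the upper right holds Vit, Mmp16 and Grik5, and the point at 6.40 is a promoter with 0 H3K27ac counts in both WT libraries, whose fitted change is no measure of size.

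Some gains had little H3K4me3 in either genotype. Serpinb10, a serine protease inhibitor of myeloid cells, had H3K27ac levels of 65.4 and 57.5 CPM in WT and 155 and 96.7 CPM in cKO, with H3K4me3 of 22.4 and 17.1 CPM in WT and 22.6 and 16.1 CPM in cKO. Without cKO replicate 1 its log2 change fell from 1.05 to 0.63 and was not called. Il16, a cytokine gene, had H3K27ac levels of 21.0 and 33.4 CPM in WT and 77.2 and 107 CPM in cKO (log2 change 1.75, and 2.75 with 5 kb to each side), with H3K4me3 no higher than 18.4 CPM in any library.

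Mir34a, the gene of a microRNA induced by p53, had H3K27ac levels of 23.4 and 22.0 CPM in WT and 45.4 and 71.1 CPM in cKO. The groups did not overlap and the log2 change was 1.36 ± 0.33 (SE; edgeR adjusted p = 0.00062), but with 5 kb to each side it was 0.41 and not called. Its H3K4me3 was 15.5 and 11.3 CPM in WT and 7.69 and 7.22 CPM in cKO. The 4 kb used (chr4:150066539-150070538) is centred beside the mature microRNA itself. These levels need not be those at the start of the longer transcript that the microRNA is cut from. The mature microRNA (chr4:150068473-150068494, plus strand, RefSeq, GRCm38.p6) is shown with the seed, bases 2 to 8, in capitals.
mmu-miR-34a-5p: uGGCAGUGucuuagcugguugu

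The H3K4me3, H3K27me3 and H2AK119ub1 contrasts share their WT libraries with the rule, and their counts are given as a description from which nothing is read. In H3K4me3 72 members were higher and 74 lower, against 40.5% and 31.8% of all tested promoters. In H3K27me3 21 were higher and 27 lower (background 12.4% and 15.6%), and in H2AK119ub1 37 and 67 (background 16.7% and 16.4%). When members were chosen in 1 WT library and fitted without it, the WT values tested were not those that chose them. Then 76 of 465 members rose in H3K4me3 and 52 fell without WT replicate 1 (background 38.9% and 29.1%), and 78 of 482 rose and 64 fell without WT replicate 2 (background 37.7% and 31%). In H3K27me3 13 and 24 rose and 21 and 26 fell (background 11.2% and 11.5% higher, 12.1% and 16% lower). In H2AK119ub1 28 and 30 rose and 48 and 40 fell (background 14.5% and 13.3% higher, 11.5% and 14.7% lower).

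Most members stayed unmarked. The rule applied to the cKO libraries chose 584 promoters, among them 389 of the members, which is 81.9% of the WT set and 66.6% of the cKO set. Few members moved into the Polycomb classes, with 29 in the top 25% of cKO H3K27me3 and 22 in the top 20% of cKO H2AK119ub1. Hook1, a microtubule linker protein gene, was among those with the highest cKO H3K27me3, at 90.8 and 62.2 CPM in WT and 247 and 222 CPM in cKO. Its H3K4me3 was 6.98 and 10.3 CPM in WT and 107 and 147 CPM in cKO, so that an active and a Polycomb mark were both higher in cKO. Its gain of H3K27ac (log2 change 1.33) ended when changes were taken relative to the neighbouring genes (0.59).

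Rtn2, a reticulon, had H3K27me3 of 139 and 91.7 CPM in WT and 248 and 206 CPM in cKO, and Rgs3, a regulator of G-protein signalling, 93.2 and 131 CPM in WT and 208 and 212 CPM in cKO. Neither was called in H3K27ac. Of the members with the highest cKO H2AK119ub1, Krt13, a keratin of mucosal epithelium, had 156 and 133 CPM in WT and 207 and 170 CPM in cKO, and its H3K27ac fell by 1.16 on the log2 scale, by 0.60 with 5 kb to each side and by 1.78 relative to neighbouring genes. Cbr2, a carbonyl reductase, had H2AK119ub1 of 77.8 and 131 CPM in WT and 208 and 184 CPM in cKO. Its H3K27ac gain of 0.82 was not called relative to neighbouring genes (0.27) or without WT replicate 1 (0.43). The 20 neighbouring genes also had raised Polycomb marks, by 0.75 at Hook1, 0.45 at Rtn2 and 0.83 at Rgs3 on the log2 scale. By the same measure the rise was 0.62 at Krt13 and 0.56 at Cbr2. The H3K27me3 changes of the first 3 members were 1.52, 0.88 and 0.82. The H2AK119ub1 changes of Krt13 and Cbr2 were 0.37 and 0.90. At Rgs3 and Krt13 the promoter's change was thus no larger than that of its neighbours.

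The changes had a chromosomal component. Of the 99 members that rose in H3K27ac, 44 lie on chromosomes 4 and 7, which hold 102 of the 475 members, while 55 rose and 49 fell among the other 373. The median H3K27ac change of the members was 0.69 on chromosome 4 and 0.66 on chromosome 7, and over all genes of these chromosomes it was 0.84 and 0.72. It was -0.50 on chromosome 15 and -0.47 on chromosome 18. H2AK119ub1 moved the same way, with a median of 0.45 on chromosome 4 and -0.85 on chromosome 18. Input libraries were not used here, so a difference in DNA copy number between the cells of the genotypes cannot be told apart from a change of marks along a chromosome. Relative to the Polycomb-mark changes of neighbouring genes, 72 members rose and 43 fell (background 27.4% and 22.8%), of which 64 and 38 were also called without that offset.

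**Figure D4:**
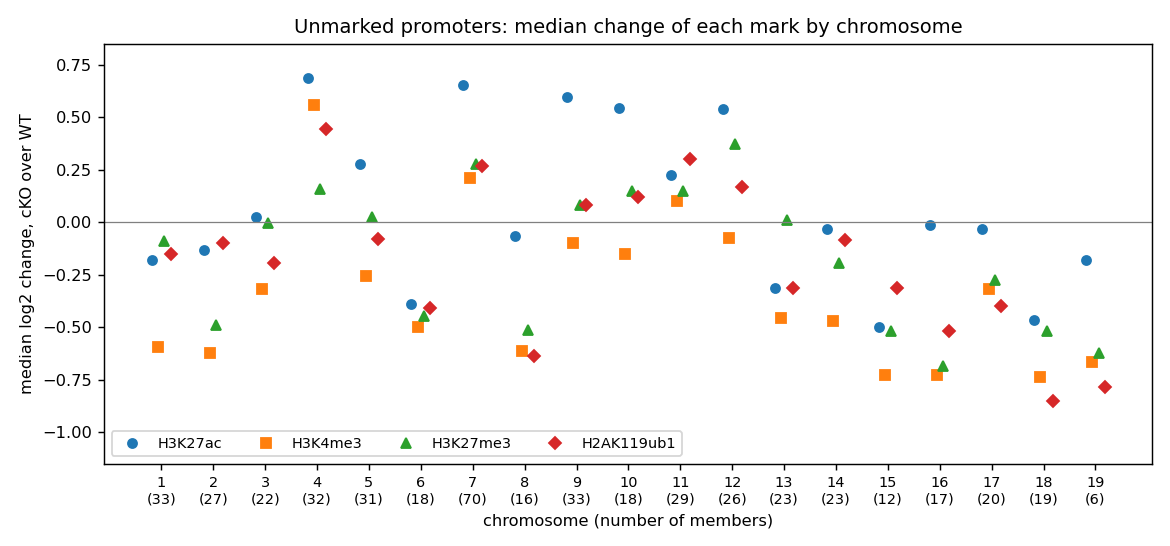
Median log2 change (cKO over WT) of each mark over the members on each autosome, with the number of members in brackets. Members on chromosomes 4, 7 and 11 lie above 0 in all 4 marks and those on 1, 2, 6, 8 and 14 to 19 below 0 in all 4.

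The lists of cell type markers held few members. Of 25 stromal markers 14 were measured, with a median WT H3K4me3 of 346 CPM, and 1 was a member. That was Ly6a, the Sca-1 antigen of mesenchymal and blood stem cells, whose H3K27ac was 57.9 and 60.1 CPM in WT and 29.3 and 25.9 CPM in cKO. Its fall of 1.09 on the log2 scale was not called relative to neighbouring genes (edgeR adjusted p = 0.063). Of 66 haematopoietic markers 5 were measured and Cd68 was the 1 member, with H3K27ac of 112 and 139 CPM in WT and 155 and 118.7 CPM in cKO and H3K4me3 over the limit on both sides of its 4 kb. Members were 2 of 4 measured muscle markers, Tnnt3 and Neb, which encode sarcomere proteins, and 3 of 4 measured liver and plasma markers, among them C4b and Serpina3g, both with thin coverage. None of these was called in H3K27ac. The endothelial, neural and epithelial lists had 1 measured gene each and no member, and no germline marker was measured.

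Families defined by gene names are given by their counts, beside the 12.5% of all autosomal promoters that are members. Their H3K27ac calls stand beside the 22.1% of tested members that rose and the 11.6% that fell. Over all tested promoters these shares were 30.9% and 29.1%. No difference from any of these shares was tested, so the counts are a description. None of 20 measured collagen genes, 3 Toll-like receptors and 5 histone genes was a member. Of 235 predicted or clone-named genes 71 were members, and 15 of these rose in H3K27ac and 6 fell. Of 27 ion channel genes 5 were members, of which P2rx7, an ATP-gated channel, rose and Kcnj15 and Trpv1, the capsaicin receptor, fell. The calls of P2rx7 (0.71) and Trpv1 (-0.89) both ended without WT replicate 1, WT replicate 2 or cKO replicate 1, at 0.46 and -0.53 without the last, and that of Trpv1 also with 1 kb to each side (-0.55). Of 20 chemokine, interleukin and receptor genes 3 were members, and Il16 and Il20rb rose while Il18r1 was not called (-0.38).

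Of 55 solute carriers 3 were members, and Slc26a7, an anion exchanger, rose by 1.47 on the log2 scale, but not relative to neighbouring genes (0.65). Of 18 receptors coupled to G proteins 3 were members, of which Adgrg3, an adhesion receptor, fell by 1.15, but with 1 kb to each side by 0.73 and was not called. Of 7 serpins 3 were members, of which Serpinb10 rose and Serpinb6b fell, the latter by 0.95 and not without WT replicate 2 (-0.78). Of 13 interferon-induced genes 5 were members. Ifitm10 rose, by 0.87, and its H3K4me3 was 18.8 and 17.5 CPM in WT and 123 and 118.6 CPM in cKO. With 5 kb to each side its H3K27ac change was 0.013. Ifi204, of a family of DNA sensors, fell by 1.60, but was not called without WT replicate 1 (-0.29) or cKO replicate 2 (-1.02), and it had 0 H2AK119ub1 counts in both WT libraries.

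Of 67 Zfp zinc finger genes 8 were members, 7 of them with thin coverage, and none was called. Of 20 matrix protease genes 2 were members, Adam4 and Mmp16, and Mmp16 rose. Of 6 measured microRNA and small nucleolar RNA hosts 5 were members, and Mir34a rose. Of 6 lectins and natural killer receptors 3 were members and none was called. Of 6 keratins 2 were members and Krt13 fell, and 1 cornified envelope gene, Sprr1a, was a member and fell. Of 5 major histocompatibility genes 1 was a member, H2-Q4, and rose. Of 3 Fc and Ig-like receptors 2, of 10 CD antigens 2 and of 8 cytochrome P450 genes 1 were members, and none was called. Of 3 Ly6 genes 2 were members, Ly6a and Ly6c1, and both fell, Ly6c1 with thin coverage. The clustered protocadherins, adhesion proteins of neurons on chromosome 18 added after values were seen, had 9 members of 18 measured. Pcdhga3 fell by 1.37 and Pcdhgb4 by 1.22 on the log2 scale, neither of them relative to neighbouring genes (edgeR adjusted p = 0.10 and 0.33).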

How the data were processed

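Values are raw read counts as deposited by the authors: per the file headers, each of 3925 gene starts has 200 bins of 50 bp, spanning 10 kb. The genome build is GRCm38, and reads went through Bowtie2 (2.4.5), cutadapt (1.18), SAMtools (1.9), bedtools (2.30.0) and Picard (2.25.5), per the submitters' processing notes, which give no settings. Groups come from the sample titles. Counts of bins 61 to 140 were summed per gene. Levels are CPM of autosomal totals, so changes are relative to the windows measured. Each mark was fitted over all genes with edgeR 4.0.16 (R 4.3.3; quasi-likelihood, genotype as the term, TMM factors from autosomal 10 kb windows, filterByExpr with a minimum count of 10) and adjusted by Benjamini-Hochberg. The fit was tested on simulated data. Input libraries were not used here.

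Symbols were assigned by position, from RefSeq (GRCm38.p6) starts within 500 bp on the same strand. This named 3305 genes (84.2%), and 115 after a shift of 20 kb. Members and gene lists were chosen with earlier results of these data known. Named genes are members with a symbol that is not predicted or clone-like: the 8 of lowest H3K27ac p in each direction with separate libraries, those highest in cKO H3K4me3 (8), H3K27me3 (4) and H2AK119ub1 (4) and in WT H3K27ac (6), 4 per list or family with 3 or more members, and those beside each limit. Others were chosen after their values were seen. Some members that the rule takes are not reported here. Sequences of the first gains without a RefSeq entry (Vit, Mmp16, Prrt2) are not shown. Alternatives were the replicate number as a block, DESeq2 1.42.0, other promoter widths, scalings and filters, 1 bin in 3, each library left out, a lowest 10%, and an offset for the Polycomb-mark changes of 20 neighbouring genes. Leaving out libraries for the 3 marks of the rule, and members with thin coverage, was chosen after seeing the data.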

Additional observations from a re-analysis of the deposited data

How the results depend on the processing

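For H3K27ac, the 99 gains and 52 losses became 103 and 55 with a replicate block, 91 and 45 with DESeq2, and 95 and 45 without members of thin coverage. With 1 kb to each side 83 rose and 31 fell, and with 5 kb 142 rose and 90 fell. Among the 298 members from the lowest 10% of H3K4me3, 62 rose and 20 fell. With each library left out, 73 to 92 rose and 26 to 50 fell, fewest losses without WT replicate 1. The cause of these shifts was not tested, beyond the smaller number of members or libraries.

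For the marks that chose the members, leaving out each library gave in H3K4me3 58 to 75 higher and 38 to 60 lower. In H3K27me3 it gave 13 to 24 higher and 11 to 21 lower, and in H2AK119ub1 0 to 30 higher and 0 to 50 lower, with 0 and 0 without cKO replicate 1 (edgeR). Relative to the change of the other Polycomb mark at neighbouring genes, 12 members were higher in H3K27me3, and 11 were higher and 30 lower in H2AK119ub1. Members chosen in WT replicate 1 and fitted without it gave 13 higher in H3K27me3, and those of WT replicate 2 gave 40 lower in H2AK119ub1. Same-numbered libraries share only a number: the correlation of their deviations was 0.054 in H3K27ac, 0.10 in H3K4me3, -0.040 in H3K27me3 and -0.015 in H2AK119ub1, over 2 pairs each. Of the changes at 58 named members over all alternatives 708 kept direction and call, 22 gained a call, 19 lost it and 0 reversed.

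Depth limits what is called: the median H3K27ac count per member was 99 to 153, and the median SE of the log2 change 0.33, against 0.20 over all tested promoters. On simulated H3K27ac data of all 3925 genes, a log2 change of 1 was called at 79 of 100 genes and of 2 at 100 of 100; detection at the members' lower depth was not simulated.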
